A study of Mus musculus with 10 samples.

Results

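The AP-1 and Egr immediate-early factors are 10 genes, Fos, Fosb, Fosl1, Fosl2, Jun, Junb, Jund, Egr1, Egr2 and Egr3, taken by gene name or by accession and not by any measured value. They were read by 13 gene probes out of 38629 tested, and they are 10 of the 26040 genes with a tested probe. Femoral RNA of 10 singly housed male mice of the ICR strain, 6 months old, was hybridised to Agilent single-colour expression arrays with 1 array per animal. In the unloaded group 5 mice were suspended by the tail, head down, for 24 h so that the hindlimbs carried no weight, and in the control group 5 mice walked freely for the same time. The labels state no genetic change and no drug for either group, and the bones were excised under anaesthesia. The comparison asks which femur transcripts differ after 1 day without loading.

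AP-1 is a dimer of a Fos protein with a Jun protein, or of Jun proteins with each other, held together by a leucine zipper and bound to short sites in promoters and enhancers. The Egr proteins are zinc-finger factors that bind GC-rich sites. Many of these genes are transcribed within minutes of a stimulus, without new protein synthesis, through the serum response factor, its partners of the Elk family and CREB, and the transcripts are mostly short-lived. In bone, mechanical strain is a known inducer of Fos and Egr genes, Fos is needed for osteoclasts to form, and Fosl1, Fosl2, Junb and Jund act in osteoblasts.

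No member passed the test after 24 h of unloading. In limma's fit over all probes, 0 of the 10 genes and 0 of their 13 probes had a Benjamini-Hochberg adjusted p below 0.05, beside a background of 0.00259% of all probes, which is 1 probe. By the probe that stands for each gene, 6 members lay higher and 4 lower in unloaded bone, with differences of -0.14 to 0.34 and a median of 0.03, against a median of 0.07 over all genes. That split was 3 higher and 7 lower when arrays were scaled to their median and 5 and 5 under quantile normalization, so the set had no direction that held across scalings. At an unadjusted p below 0.05 stood 1 of the 10 genes, Fosl2, on the higher side. Among all 26040 genes, 2815 reached that level on the higher side and 1445 on the lower side. By probe, A_51_P507242 of Fosl2 and A_51_P437198 of Egr3 reached it out of 13, both on the higher side. Over all probes 16.1% reached it, 10.2% of all probes on the higher side and 5.92% on the lower side. The members' share was not tested against the background. In 0 of the 10 genes did the groups separate fully, against 3.16% of all probes.

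**Figure D1:**
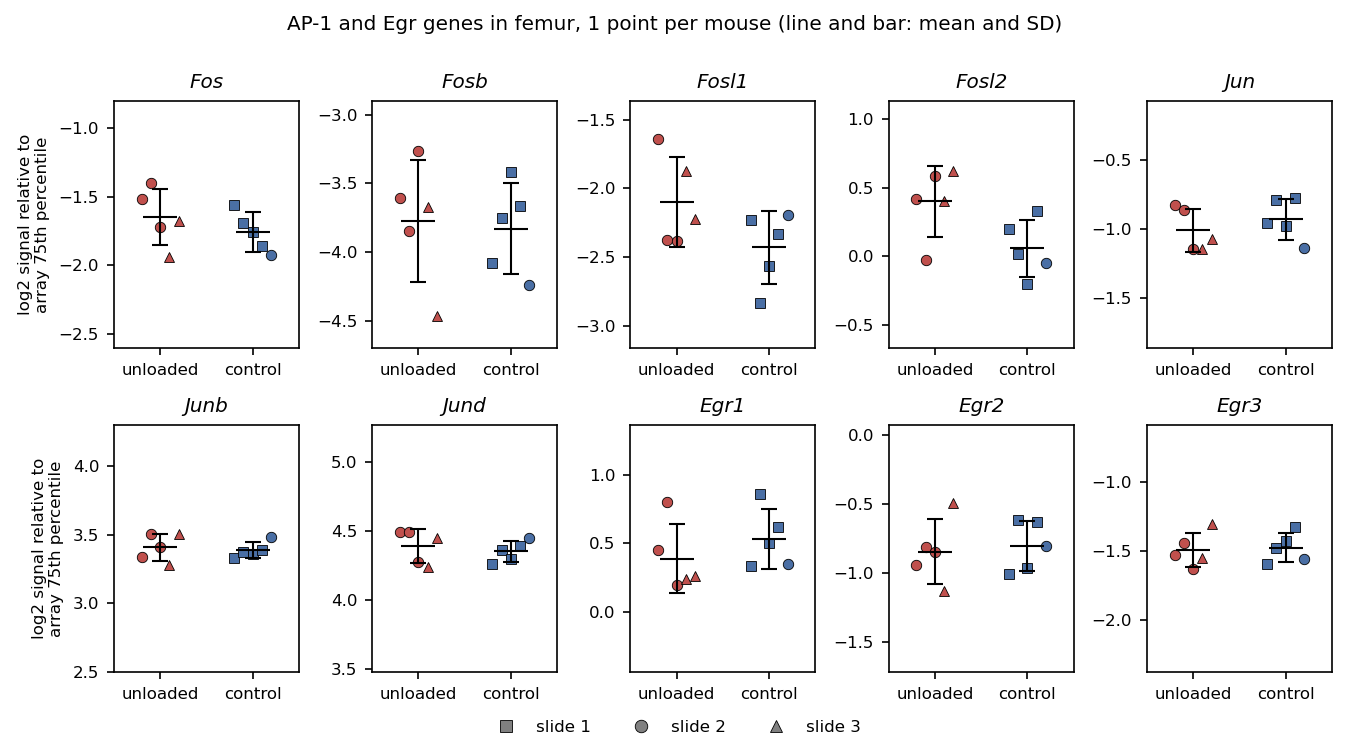
Log2 signal of each member relative to the array's 75th percentile (vertical axes, all spanning the same log2 range), with 1 point per mouse, unloaded mice left and control mice right, the slide shown by the point's shape, and a line and bar for the mean and SD of 5 mice. The groups overlap in all 10 panels.

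Levels are given as log2 signal relative to the 75th percentile of the same array, every difference is unloaded minus control, and errors of group means are SDs over 5 mice. Levels of different probes are not comparable on these arrays, so the genes are not ranked by level. All 13 probes were well above background on 5 of 5 arrays in both groups, except Fosb's, which was on 4 of 5 arrays in each. The arrays' 75th percentiles lay at 637 to 903 intensity units, and 89.8 to 95.5% of gene spots on an array were well above background. Unloaded mouse 5 stood apart, with a median correlation with the other arrays of 0.973, against 0.985 to 0.988 for the others. The arrays lay on 3 slides: slide 1 held controls 1 to 4, slide 2 held unloaded mice 1 to 3 and control 5, and slide 3 held unloaded mice 4 and 5, so group and slide could be compared only on slide 2. Of the marker lists, the 5 osteoblast genes averaged 3.91 to 4.93 in unloaded and 4.33 to 4.63 in control mice, the 5 osteocyte genes 1.15 to 1.49 in unloaded and 0.97 to 1.26 in control mice, and the 5 skeletal muscle genes 3.34 to 4.53 in unloaded and 3.23 to 4.53 in control mice. The 5 neutrophil genes averaged 5.54 to 5.82 in unloaded and 5.59 to 5.93 in control mice, so the RNA held bone, marrow and muscle transcripts, and 0 genes of the 12 marker lists were called. In such bulk RNA, fewer cells of a type and less RNA per cell cannot be told apart.

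Promoter windows of the members, 250 bases before to 50 bases after the start site, were taken from RefSeq (GRCm38.p6). Of the 10 genes, 7 matched the promoter table. The windows were searched on both strands for TGACG, the half-site of the cAMP response element, for the whole element TGACGTCA, which contains the half-site, for the AP-1 site TGANTCA, for its variant TGACATCA, for GCGNGGGCG, which Egr proteins bind, for the TATA box core TATAAA, and for the serum response element core. Over all 32851 promoter windows, these were found in 20.8%, 1.79%, 7.81%, 3.62%, 5.55%, 13.6% and 1.63%, in that order. The half-site was added to the search after the windows had been read, and a match describes the letters only. Windows are printed for Fos, Jun and Egr2, whose probes were spotted 10 times on each array, and for Fosl2, the member with the largest difference, with the matched letters in capitals and positions counted from the start site.

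Among the Fos proteins, Fos, the founding member and an early marker of cell stimulation, did not differ between the groups beyond the spread of the animals. Fos, on chromosome 12 at 85473890 to 85477274, stood at -1.52, -1.40, -1.72, -1.94 and -1.68 in unloaded mice 1 to 5, against -1.56, -1.69, -1.76, -1.86 and -1.93 in control mice 1 to 5. The highest value was that of unloaded mouse 2 and the lowest that of unloaded mouse 4, so the unloaded mice spanned the whole control range. The means were -1.65 ± 0.20 in unloaded and -1.76 ± 0.14 in control bone, a difference of 0.11 (SE 0.12, 95% interval -0.14 to 0.36, limma adjusted p = 0.615). That interval runs from 1.10-fold lower to 1.28-fold higher in unloaded bone. Within an array, the SD over the 10 spots of Fos had a median of 0.117, and the pooled SD between mice of a group was 0.177. The size of the Fos difference depended on the setting: it was 0.38 on slide 2 alone, with a single control, 0.013 with arrays scaled to their median, 0.0066 with quantile normalization, 0.046 without unloaded mouse 2 and 0.18 without unloaded mouse 4. The Fos window, chr12:85473640-85473939 on the plus strand, held 2 half-sites TGACG, at -129 and -66, and the TATA box core at -33.
Fos: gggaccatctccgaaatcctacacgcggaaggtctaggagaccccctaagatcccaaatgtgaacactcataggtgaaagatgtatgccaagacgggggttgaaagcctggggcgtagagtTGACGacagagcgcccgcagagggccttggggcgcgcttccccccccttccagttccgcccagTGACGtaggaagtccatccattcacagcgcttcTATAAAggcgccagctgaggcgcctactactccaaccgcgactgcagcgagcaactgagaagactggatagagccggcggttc

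Fosb, whose long-lived splice form accumulates under repeated stimulation in neurons, had the widest spread of the Fos genes. It stood at -3.60, -3.85, -3.27, -3.68 and -4.47 in unloaded mice 1 to 5, against -4.08, -3.75, -3.41, -3.66 and -4.24 in control mice 1 to 5. The lowest value was that of unloaded mouse 5, the array that stood apart, and the ranges overlapped almost wholly. The means were -3.77 ± 0.44 in unloaded and -3.83 ± 0.33 in control bone, and the difference was 0.06 (SE 0.20, 95% interval -0.38 to 0.50, limma adjusted p = 0.891). It was 0.23 without unloaded mouse 5, 0.67 on slide 2 alone and -0.10 after normexp background correction. Its sign therefore depended on the processing, on a probe that was below the background criterion on 1 array of each group.

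Fosl1 (Fra-1), a target of AP-1 itself that promotes bone matrix formation, stood at -1.64, -2.38, -2.38, -1.87 and -2.23 in unloaded mice 1 to 5, against -2.23, -2.83, -2.57, -2.33 and -2.20 in control mice 1 to 5. Unloaded mice 1 and 4 lay above all controls and controls 2 and 3 below all unloaded mice, with the remaining mice between. The means were -2.10 ± 0.33 in unloaded and -2.43 ± 0.27 in control bone. The difference of 0.33 (SE 0.16, 95% interval -0.02 to 0.68) did not pass, with a limma adjusted p of 0.329. It kept its sign under all 21 alternatives, at 0.06 to 0.40, the smallest being that on slide 2 alone, and it was 0.22 without unloaded mouse 1. Some alternatives could not move it: the filter, replicate block and variance model returned the same difference. Slide as a fixed block repeated the slide 2 value.

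Fosl2 (Fra-2), a regulator of osteoblast and osteoclast differentiation, gave the largest difference of the 10 members by 1 of its 2 probes and none by the other. By probe A_51_P507242 it stood at 0.42, -0.03, 0.59, 0.40 and 0.62 in unloaded mice 1 to 5, against 0.20, 0.02, -0.20, 0.33 and -0.05 in control mice 1 to 5. In 4 of the 5 unloaded mice it lay above every control, and unloaded mouse 2 lay among the controls. The means were 0.40 ± 0.26 in unloaded and 0.06 ± 0.21 in control bone, a 1.27-fold difference (log2 0.34, SE 0.14, 95% interval 0.05 to 0.64, limma unadjusted p = 0.0265, adjusted p = 0.277). Without unloaded mouse 2 the groups no longer overlapped, and the difference was 0.45 with a limma adjusted p of 0.110. Leaving out that mouse also raised the probes at a limma unadjusted p below 0.05 over the whole table from 6225 to 9575. Probe A_52_P484903 of the same transcript stood at -0.62, -0.29, -0.48, -0.72 and -0.39 in unloaded mice 1 to 5, against -0.22, -0.45, -0.43, -0.43 and -0.66 in control mice 1 to 5. These ranges overlapped, and the difference had the opposite sign, -0.06 (SE 0.11, 95% interval -0.30 to 0.18, limma adjusted p = 0.783). As the mean of both probes the difference was 0.14. The files list both probes under the same transcript, so they do not settle a difference for Fosl2. Its window, chr5:32136222-32136521 on the plus strand, held an Egr site at -79.
Fosl2: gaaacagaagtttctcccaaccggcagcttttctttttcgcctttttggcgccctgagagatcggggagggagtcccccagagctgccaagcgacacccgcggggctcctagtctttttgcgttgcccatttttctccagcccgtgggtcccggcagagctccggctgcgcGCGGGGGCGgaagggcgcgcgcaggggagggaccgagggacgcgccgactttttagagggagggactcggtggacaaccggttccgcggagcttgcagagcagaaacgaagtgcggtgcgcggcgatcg

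**Figure D2:**
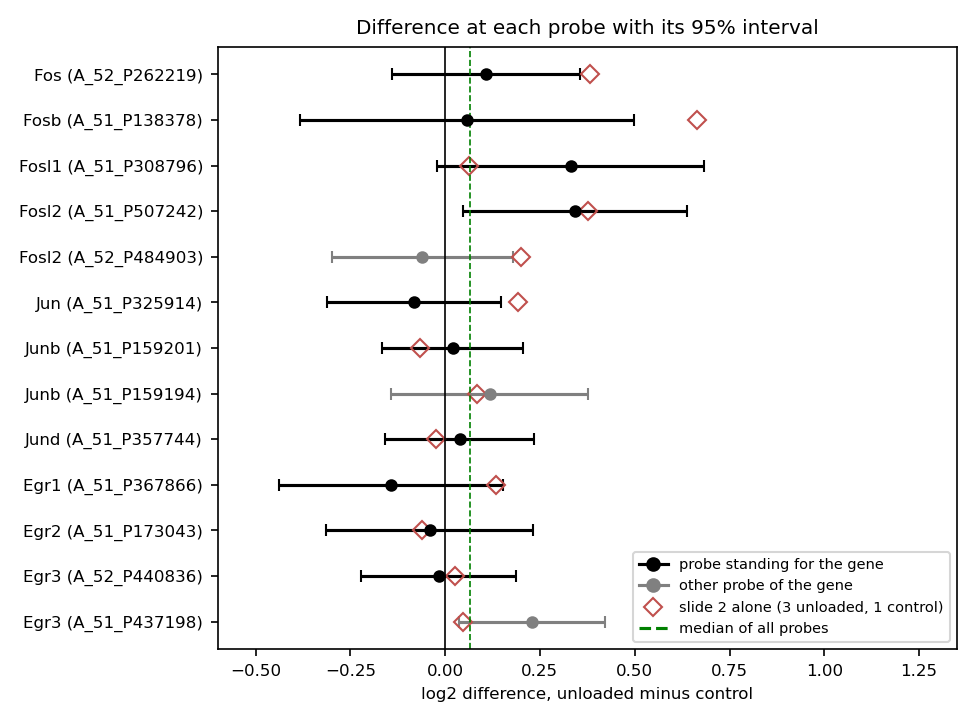
Log2 difference, unloaded minus control (horizontal axis), at each of the 13 member probes, with its 95% interval from limma (5 mice per group); black points stand for the gene, grey points are second probes, open diamonds are slide 2 alone (3 unloaded mice, 1 control) and the dashed line is the median of all probes. Only A_51_P507242 of Fosl2 and A_51_P437198 of Egr3 have intervals that leave out 0, and the interval of the other probe of each gene holds 0.

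Among the Jun genes, the intervals of all 3 held 0. Jun, the main partner of Fos and the substrate of the JNK kinases, lies on chromosome 4 at 95049036 to 95052222. It stood at -0.82, -0.86, -1.15, -1.15 and -1.07 in unloaded mice 1 to 5, against -0.96, -0.79, -0.98, -0.78 and -1.14 in control mice 1 to 5. Unloaded mice 3, 4 and 5 and control 5 formed the lower end, and the other 6 mice lay above them. The means were -1.01 ± 0.16 in unloaded and -0.93 ± 0.15 in control bone, and the difference was -0.08 (SE 0.11, 95% interval -0.31 to 0.15, limma adjusted p = 0.688). The spots of Jun on an array had a median SD of 0.0844, against a pooled SD between mice of 0.153. On slide 2 alone the sign turned, to 0.19. The Jun window, chr4:95052173-95052472 on the minus strand, held the AP-1 variant TGACATCA at -45, a match that 3.62% of all windows have.
Jun: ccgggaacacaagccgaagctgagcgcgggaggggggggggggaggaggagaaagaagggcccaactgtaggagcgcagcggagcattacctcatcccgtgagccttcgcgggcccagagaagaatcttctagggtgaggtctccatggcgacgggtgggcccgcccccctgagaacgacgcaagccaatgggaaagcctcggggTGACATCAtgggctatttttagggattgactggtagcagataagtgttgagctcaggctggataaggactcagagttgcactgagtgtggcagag

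Junb, which can replace or restrain Jun and is needed for normal bone mass, varied little between mice by 1 of its 2 probes. By the other it varied more in unloaded mice. It stood at 3.34, 3.51, 3.41, 3.28 and 3.51 in unloaded mice 1 to 5, against 3.33, 3.38, 3.36, 3.39 and 3.48 in control mice 1 to 5 by probe A_51_P159201. The difference was 0.02 (SE 0.09, 95% interval -0.17 to 0.21, limma adjusted p = 0.913), with means of 3.41 ± 0.10 in unloaded and 3.39 ± 0.06 in control bone. All 5 control values lay inside the range of the unloaded mice. Probe A_51_P159194 gave 0.12 (SE 0.12, limma adjusted p = 0.602), with unloaded mice at 2.84 to 3.56 and controls at 2.96 to 3.11. The value of 3.56 was that of unloaded mouse 5, without which that difference was 0.01.

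Jund, the most constantly expressed Jun gene in most tissues, listed in the files as Jund1, stood at 4.50, 4.49, 4.28, 4.24 and 4.45 in unloaded mice 1 to 5, against 4.26, 4.36, 4.30, 4.39 and 4.45 in control mice 1 to 5. The groups overlapped over most of their range. The means of 4.39 ± 0.12 in unloaded and 4.35 ± 0.07 in control bone differed by 0.04 (SE 0.09, 95% interval -0.16 to 0.23, limma adjusted p = 0.834). By the probe standing for each gene, the 95% intervals of Junb and Jund reached 1.15-fold and 1.18-fold higher, and 1.12-fold and 1.12-fold lower, in unloaded bone. For the second Junb probe the upper limit was 1.30-fold. These intervals leave out slide, and with slide as a block the SE of the first Junb probe was 0.16 and that of Jund 0.17. Of the 10 genes Fosl1 had the highest upper limit, 1.61-fold. Fosb had the widest interval, from 1.30-fold lower to 1.41-fold higher.

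Egr1, a zinc-finger factor induced by serum, strain and growth factors, had a lower mean in unloaded bone, within the spread of the animals. It stood at 0.45, 0.80, 0.20, 0.24 and 0.26 in unloaded mice 1 to 5, against 0.33, 0.86, 0.50, 0.62 and 0.35 in control mice 1 to 5. Unloaded mice 3, 4 and 5 lay below every control, while unloaded mouse 2 was second only to control 2. The means were 0.39 ± 0.25 in unloaded and 0.53 ± 0.22 in control bone, a difference of -0.14 (SE 0.14, 95% interval -0.44 to 0.15, limma adjusted p = 0.575). It was -0.24 without unloaded mouse 2, -0.061 without control 2, -0.094 without unloaded mouse 3 and 0.13, the opposite sign, on slide 2 alone.

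Egr2 (Krox-20), known for its part in hindbrain segmentation, myelination and endochondral bone formation, stood at -0.940, -0.813, -0.851, -1.129 and -0.489 in unloaded mice 1 to 5, against -1.005, -0.616, -0.961, -0.628 and -0.807 in control mice 1 to 5. Unloaded mice held both the lowest value, that of mouse 4, and the highest, that of mouse 5. The means were -0.84 ± 0.23 in unloaded and -0.80 ± 0.18 in control bone, and the difference was -0.04 (SE 0.13, 95% interval -0.31 to 0.23, limma adjusted p = 0.875). Its 10 spots on an array had a median SD of 0.0996, against a pooled SD between mice of 0.209. RefSeq lists several start sites for Egr2. The window of 1 of them, chr10:67537619-67537918 on the plus strand, is printed here. It held the serum response element core at -72 and 2 half-sites TGACG, at -111 and, on the other strand, at -55. The windows that start at 67537620 and 67537680 overlap it and held the same sites. The window that starts at 67537316 held the serum response element core and no half-site, and the one that starts at 67535249 held no match. The serum response element core is in 1.63% of all windows.
Egr2: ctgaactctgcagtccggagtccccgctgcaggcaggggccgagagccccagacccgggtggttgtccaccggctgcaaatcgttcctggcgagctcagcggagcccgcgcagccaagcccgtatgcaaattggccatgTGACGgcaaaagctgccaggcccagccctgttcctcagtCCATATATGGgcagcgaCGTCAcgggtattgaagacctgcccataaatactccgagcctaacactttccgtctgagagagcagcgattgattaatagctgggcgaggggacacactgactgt

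Egr3, a relative of Egr1 best known from muscle spindles and lymphocytes, had 2 probes that differed from each other. Probe A_52_P440836, the one with the higher signal, stood at -1.53, -1.44, -1.63, -1.55 and -1.31 in unloaded mice 1 to 5, against -1.59, -1.48, -1.43, -1.32 and -1.56 in control mice 1 to 5, and the groups overlapped. Its difference was -0.02 (SE 0.09, 95% interval -0.22 to 0.19, limma adjusted p = 0.936). Probe A_51_P437198 stood at -2.65, -2.82, -2.66, -2.64 and -2.65 in unloaded mice 1 to 5, against -2.92, -3.04, -2.98, -2.86 and -2.76 in control mice 1 to 5. Here 4 of the 5 unloaded mice lay above every control, and unloaded mouse 2 lay below control 5. The difference was 0.23, or 1.17-fold (SE 0.09, 95% interval 0.04 to 0.42, limma unadjusted p = 0.0233, adjusted p = 0.272), and it was 0.05 on slide 2 alone. It was 0.11 after normexp background correction, 0.13 with arrays scaled to their median and 0.12 with quantile normalization. The files list the probes under different transcript records, a cDNA clone for the first and the RefSeq transcript for the second.

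**Figure D3:**
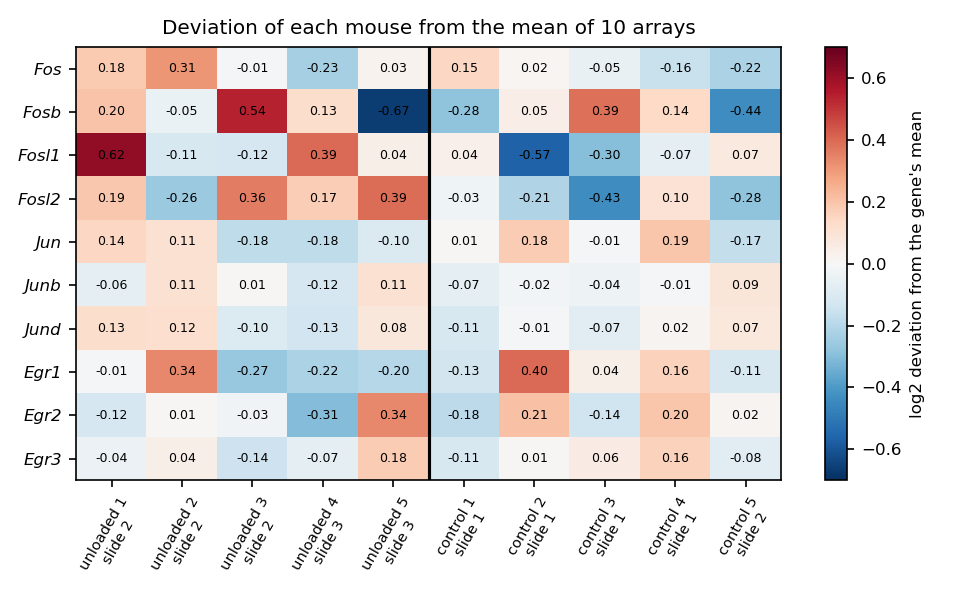
Log2 deviation of each mouse (columns, unloaded mice left of the line and control mice right of it, with the slide) from the mean of the 10 arrays, for each member (rows); red is above and blue below the gene's mean. By the probe that stands for each gene, Junb and Jund vary least and Fosb and Fosl1 most, and no column is of a single colour over all 10 genes.

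The members did not form a block that rose and fell together from mouse to mouse. Of the 45 pairs of members, 26 had a positive and 19 a negative Pearson correlation over the 10 mice, and 0 pairs passed Benjamini-Hochberg adjustment over the 45 by Pearson or by Spearman permutation test, with 4 at an unadjusted Pearson permutation p below 0.05. The closest pair was Jun and Egr1, at r = 0.83 (permutation p = 0.00369, adjusted p = 0.166) and rho = 0.84 (permutation p = 0.00363, adjusted p = 0.163). With group means removed r was 0.81, and without controls 2 and 4, the mice farthest from the median of Jun, it was 0.76. This pair alone passed adjustment when arrays were scaled to their median (r = 0.91, permutation adjusted p = 0.0202) or quantile normalized (r = 0.90, permutation adjusted p = 0.0157). The other 3 pairs were Egr2 with Egr3 (r = 0.69), Junb with Egr2 (r = 0.67) and Junb with Jund (r = 0.65), which were 0.52, 0.60 and 0.46 without the 2 farthest mice. Fos with Jun, the classical AP-1 pair, stood at 0.47, and Fos with Egr1 at 0.37. Values of an array share its scaling and slide, and no slide held enough mice for a correlation of its own.

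**Figure D4:**
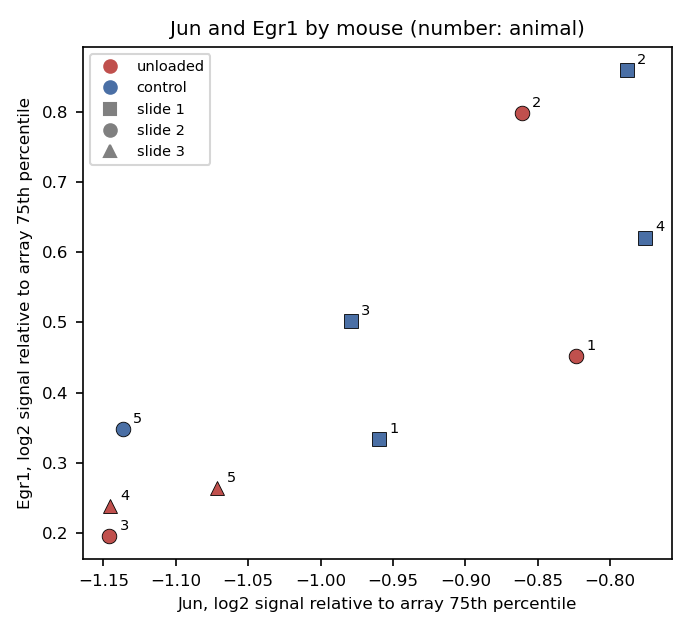
Egr1 (vertical axis) against Jun (horizontal axis), both as log2 signal relative to the array's 75th percentile, with 1 point per mouse, coloured by group, shaped by slide and numbered by animal. Both groups lie along the same rising course (r = 0.83 over 10 mice), with unloaded mice 3 to 5 and control 5 at its low end.

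The genes whose level followed Fos most closely, by Pearson r of group-centred values over the 10 mice among 17632 genes, were Ints8 (0.94), an Integrator subunit, Rcan2 (0.91), a calcineurin regulator, Col5a3 (0.90), a type V collagen chain, Samd8 (0.89) and Wdr19 (0.88). For Egr1 they were Pdcd7 (0.97), Rab11fip5 (0.95), Ccn4 (0.95), a matricellular protein of the CCN family, Map4 (0.94), a microtubule-associated protein, and Syap1 (0.94). No member of the AP-1 or Egr families was among these 10 genes. They are the extremes of many comparisons over few mice and are given as a description.

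The factors that pair with AP-1 or act beside Egr did not pass the test either. Of the 16 bZIP dimer partners, 6 lay higher and 10 lower, 0 were called and the median difference was -0.04, against 0.07 over all genes. The split was 8 and 8 with quantile normalization and 9 higher and 7 lower with slide as a block. It was 5 higher and 11 lower after normexp background correction, and 4 higher and 12 lower (median -0.13) with arrays scaled to their median. Nfe2l2, the oxidative stress factor NRF2, stood at 2.98, 3.09, 2.94, 2.87 and 2.60 in unloaded mice 1 to 5, against 3.21, 3.18, 3.19, 3.14 and 3.14 in control mice 1 to 5. Its groups did not overlap, as in 3.16% of all probes, at a difference of -0.28 (SE 0.10, limma adjusted p = 0.258). Of its 4 probes, 3 had that sign. On slide 2 alone it was -0.14. Maff, a small Maf protein, had a difference of 0.37 (SE 0.17, limma adjusted p = 0.307), of which unloaded mouse 5 gave the highest value, -0.10 against -1.22 to -0.81 in the other unloaded mice, and without that mouse it was 0.19. Atf2, a Jun partner, differed by 0.26 (limma adjusted p = 0.328) and Mafg by -0.26 (limma adjusted p = 0.378), and on slide 2 alone they were 0.15 and -0.083. Of the probes of Atf2, 3 of 5 had the sign given, and of those of Mafg 1 of 2. Of the 5 Egr relatives and co-regulators, 3 lay higher and 2 lower with 0 called and a median of 0.16. That median was 0.00070 after normexp background correction, 0.063 with arrays scaled to their median and 0.053 without unloaded mouse 5. The Egr co-repressors Nab2 and Nab1 differed by 0.22 and 0.18, Wt1, which binds similar sites, by 0.16, and Sp1 by -0.24, with limma adjusted p of 0.317 to 0.493. Without unloaded mouse 5 Nab1 was 0.053, and its other probe had the opposite sign, -0.23. Nab2 was 0.13 without control 5 and 0.60 on slide 2 alone, and Wt1 was 0.00070 after normexp background correction.

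Upstream of the members, 18 kinases and factors were measured, with 5 higher, 13 lower, 0 called and a median of -0.04. The split was 8 higher and 10 lower with quantile normalization and 7 and 11 after normexp background correction. It was 5 higher and 13 lower (median -0.14) with arrays scaled to their median. With slide as a block it was 4 higher and 14 lower (median -0.11). Mrtfb, an actin-regulated partner of the serum response factor, differed by 0.27 (limma adjusted p = 0.307), and by -0.02 on slide 2 alone. Mapk14, the p38 kinase, differed by -0.27 (limma adjusted p = 0.341), Creb1 by -0.16 (limma adjusted p = 0.372) and Map2k1, the ERK activator MEK1, by -0.17 (limma adjusted p = 0.388). Mapk14 was -0.15 without unloaded mouse 5, Map2k1 was -0.12 without control 3, and on slide 2 alone Creb1 was -0.065 and Map2k1 -0.027. Mrtfb and Creb1 each had 3 probes, of which 2 had the sign given.

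Other immediate-early genes lay on both sides of 0. Of 32 listed, 30 were tested, Nr4a3 and Dusp5 having no tested probe. Of the 30, 12 lay higher and 18 lower with 0 called and a median of -0.04. The split was 6 higher and 24 lower (median -0.14) with arrays scaled to their median and 17 higher and 13 lower (median 0.064) with slide as a block. At an unadjusted p below 0.05 stood 2 on the higher and 5 on the lower side, against 10.2% and 5.92% of all probes. Ccn1 (Cyr61), a matricellular protein and target of YAP and the serum response factor, stood at 1.77, 1.29, 1.10, 1.03 and 0.80 in unloaded mice 1 to 5, against 0.60, 0.81, 0.79, 0.29 and 0.27 in control mice 1 to 5. In 4 of the 5 unloaded mice it lay above every control, and the difference was 1.56-fold (log2 0.64, SE 0.17, limma adjusted p = 0.218), and log2 1.12 on slide 2 alone. Nr4a2, an orphan nuclear receptor, stood at -1.23, -1.23, -1.13, -1.40 and -1.41 in unloaded mice 1 to 5, against -0.69, -0.70, -1.02, -0.95 and -1.09 in control mice 1 to 5. Its groups did not overlap, as in 3.16% of all probes. The difference was -0.39 (SE 0.11, limma adjusted p = 0.219), and it was -0.11 on slide 2 alone. Ier5 also did not overlap, at -0.30 (SE 0.09, limma adjusted p = 0.240) and -0.18 on slide 2 alone, and Dusp1, a phosphatase that switches off MAP kinases, differed by 0.36 (SE 0.11, limma adjusted p = 0.243).

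Of 24 genes known as AP-1 or Egr targets in bone or bone cells, 15 lay higher and 9 lower, 0 were called and the median was 0.05. The split was 8 higher and 16 lower (median -0.046) with arrays scaled to their median and 18 higher and 6 lower (median 0.17) with slide as a block. Il6, a cytokine with an AP-1 site in its promoter, stood at -2.76, -3.12, -2.76, -2.91 and -2.70 in unloaded mice 1 to 5, against -3.30, -3.24, -3.36, -3.17 and -3.24 in control mice 1 to 5. In Il6 the groups did not overlap, as in 3.16% of all probes, and the difference was 0.41, or 1.33-fold (SE 0.10, limma adjusted p = 0.218). After normexp background correction it was 0.18 (limma adjusted p = 0.715). The coagulation initiator F3 differed by 0.25 (limma adjusted p = 0.335), Tgfb1 by -0.33 (limma adjusted p = 0.362) and Vegfa by -0.16 (limma adjusted p = 0.372). Tgfb1 was -0.15 without unloaded mouse 5, and on slide 2 alone F3 was 0.12, Tgfb1 -0.10 and Vegfa 0.032. Of the probes of F3, 1 of 2 had the sign given, and of those of Vegfa 2 of 3.

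**Figure D5:**
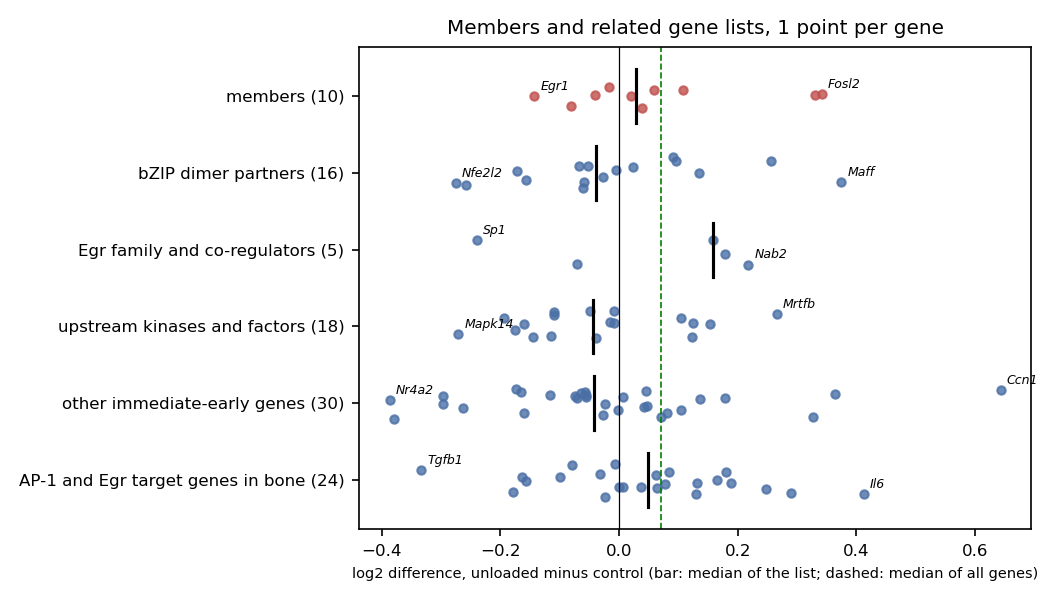
Log2 difference, unloaded minus control (horizontal axis), of the 10 members and of each tested gene of the 5 related lists, 1 point per gene; the black bar is the median of a list and the dashed line that of all genes. The members span -0.14 to 0.34, inside the span of the 30 other immediate-early genes, -0.39 to 0.64.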

How the data were processed

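Femur RNA of 5 unloaded and 5 control mice was measured, with the groups and animal numbers taken from the labels. Per the file headers, the authors' deposited spot intensity values are linear and came from the Feature Extraction software of Agilent, version 9.1.3.1 (protocol GE1-v5_91_0806, 1 colour, design 014868). It subtracted background and detrended each array on its own, and arrays were not scaled to each other. The deposited series matrix holds the same intensity values, rounded, and was an alternative; its ratios to the scanner values lay between 0.995 and 1.005, so it is linear and uncentred, and its column medians were 315, 269, 253, 311 and 291 for unloaded mice 1 to 5 and 335, 332, 303, 261 and 306 for controls 1 to 5.

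Each array had 45018 spots, 43379 of them for 41174 gene probes. After 97 outlier spots over all arrays were left out, spots of a probe were averaged as log2 of the processed signal, and the array's 75th percentile was subtracted. A probe was tested when well above background on 4 or more of the 5 arrays in either group, with values from 3 or more arrays in both, which 38629 were. Groups were compared with limma 3.58.1 (lmFit, eBayes) in R 4.3.3, two-sided and without covariates, with Benjamini-Hochberg adjustment over all tested probes and a threshold of 0.05. The tested probe with the highest mean stood for a gene. Names came from RefSeq (GRCm38.p6): 22951 probes matched by accession, 6659 by current and 3109 by older name, and for 8455 the array's own name was used. Correlations used 100000 resamples.

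All members are named, with up to 4 genes of each related list by smallest p and the 5 genes most like Fos and like Egr1, clone names passed over. The members and lists were chosen with earlier results of these data known. The alternatives covered background correction, scaling, filter, source of values, slide, replicate number, body weight, variance model, choice of probe and each array left out in turn. Same-numbered animals of the 2 groups did not deviate together (correlations of -0.14 to 0.18), so the numbers were not used as pairs. Body weight was 27.3 ± 1.72 g in unloaded and 28.6 ± 1.78 g in control mice (SD, n = 5 each, exact permutation p = 0.278). Data of 38550 probes were simulated with 5 arrays per group, noise independent between probes and no slide effect. There the fit called 28% of 100 probes changed by 0.5 on the log2 scale and 86% of 100 changed by 1. The number of arrays limits the precision.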

Additional observations from a re-analysis of the deposited data

Results flagged for a closer look

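Among the 66 groups of 5 values examined over the members and the named related genes, 3 had a mouse that stood far from the other 4, about as many as chance gives, since 1 group in 20 is marked by chance. For Egr3 by probe A_51_P437198, unloaded mouse 2 stood at -2.82, below the other unloaded mice at -2.66 to -2.64. For Mafg, unloaded mouse 5 stood at 0.58, below the other unloaded mice at 1.16 to 1.38. For Wt1, unloaded mouse 5 stood at -3.23, above the other unloaded mice at -3.58 to -3.52. Without unloaded mouse 5 the Mafg difference was -0.12 and the Wt1 difference 0.093, and without unloaded mouse 2 the Egr3 difference by that probe was 0.26.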

How the results depend on the processing

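No member and no related gene was called under any alternative, with limma adjusted p of 0.110 (Fosl2, without unloaded mouse 2) or more for members. Of 213 member values under alternatives, 29 changed sign, and the cause was not tested. The 213 include values that could not change, since the filter, replicate block and variance model leave the difference as it is. Slide as a fixed block and slide 2 alone give the same value, so they are not separate alternatives. With slide as a fixed block or within slide 2 (3 unloaded mice, 1 control), Jun was 0.19, Junb -0.066, Jund -0.025, Egr1 0.13, Egr3 0.027, the second Fosl2 probe 0.20, Mrtfb -0.018 and Vegfa 0.032, all with a limma adjusted p of 1.000 in the block fit. Fosb was -0.10 with normexp, -0.037 with median scaling and -0.011 with quantile normalization. With median scaling Junb was -0.075 and Jund -0.057. With body weight as a covariate Junb was -0.00052 and Egr3 0.0046. Egr3 was 0.0088 with normexp and 0.11 as the mean of both probes. Leaving out each array in turn gave -0.069 to 0.23 for Fosb, -0.0047 to 0.051 for Junb, -0.13 to 0.030 for Egr2 and -0.063 to 0.022 for Egr3. Fos, Fosl1 and the first probe of Fosl2 kept their sign throughout. Leaving out 1 array in turn gave 0 to 1 members whose groups did not overlap (Fosl2, without unloaded mouse 2), 1 to 2 probes called (2 without control 2) and a median member difference of 0.00017 to 0.043. The share of all probes whose groups did not overlap was not counted with an array left out, so that Fosl2 result has no background beside it. Over the whole table, 3 probes were called with slide as a fixed block, 0 with body weight and 3 with trend and robust variance, against 1 in the fit reported. Correlated pairs passing adjustment numbered 1 with median scaling and 1 with quantile normalization, against 0.

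The median difference of all probes was 0.07, and -0.03 with median scaling and 0.01 with quantile normalization. At an unadjusted p below 0.05, 3939 probes lay higher and 2286 lower, against 1386 and 4474 with median scaling, 2095 and 2938 with quantile normalization and 1364 and 1866 with normexp; the total was 1815 with slide as a fixed block, 3488 with body weight and 9575 without unloaded mouse 2, against 6225. The replicate block left every member difference as it was and called 1 probe, with 6429 at an unadjusted p below 0.05 and a smallest member adjusted p of 0.259 in limma. Fosb, below the background criterion on 1 array per group, is the member whose signal limits it most. Apart from slide 2, slide and group cannot be told apart. In the simulated data, which held no slide effect, most differences of 0.5 on the log2 scale were missed at this number of mice.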
